A study of Mus musculus with 4 samples.

Results

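The 10 genes described here encode the quality control and shape machinery of mitochondria: the proteases Lonp1, Clpp, Clpx, Afg3l2 and Yme1l1, the fusion proteins Mfn1, Mfn2 and Opa1, and the fission proteins Dnm1l and Fis1. They were chosen by name, and every probe set annotated to exactly 1 of these symbols was taken, which gave 26 of the 45037 probe sets in the table. A probe set is a group of short probes on the array that together read 1 transcript. All 10 genes had at least 1 probe set, with 12 for the proteases, 8 for the fusion genes and 6 for the fission genes.

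Mitochondria keep their protein content in order with ATP-driven proteases. LONP1 and the CLPXP complex work in the matrix, while the AAA proteases AFG3L2 and YME1L1 sit in the inner membrane and face its opposite sides. The organelles also join and divide all the time: the mitofusins join outer membranes, OPA1 joins inner membranes, and the dynamin DRP1, the product of Dnm1l, constricts the tubule where adaptors such as FIS1 hold it. Heart muscle is packed with mitochondria, and loss of fusion or of protein turnover in it is known to impair contraction in mice.

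The cells were HL-1, a single line of mouse atrial muscle cells that goes on beating in culture. In 2 samples they had been stimulated electrically for 24 h at 300 beats per minute, 1.5 to 2 times the rate of the controls. In the 2 control samples they contracted spontaneously, with no electrical stimulation. Both groups were grown to confluence in supplemented Claycomb medium on coverslips coated with gelatin and fibronectin, and 1 Affymetrix array was hybridised per sample. The comparison asks how atrial cell transcripts differ after a day of rapid stimulation. Since no cells were paced at the controls' own rate, the faster rate and the electrical field cannot be told apart. The labels give experiment numbers for the stimulated samples only, and they do not state separate cultures. P-values therefore reflect only how far these samples varied, in part perhaps for technical reasons. The numbers of the control samples come from a protocol text and the order of the records. These are bulk samples, in which fewer cells of a type and less RNA per cell cannot be told apart.

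Array medians lay between 4.96 and 5.01 on the log2 scale of the deposited values, and 27022 probe sets with a mean of at least 4.39 (the 40th percentile) were tested. Across probe sets, which are not independent replicates, r was 0.989 within the stimulated pair, 0.991 within the control pair and 0.969 to 0.975 between groups. All 9 cardiac muscle markers passed the filter, with means from 9.02 to 13.71. They were not level between the groups: of their 15 probe sets 1 rose, of Nppa at 2.00, and 4 fell, 1 of Myh6 at -2.89, 1 of Ryr2 at -0.85 and both of Gata4 at -1.21 and -0.74, with a median change of -0.48. The linear signal summed over the cardiac list, taking each gene's brightest probe set, was 48898 and 58166 on the stimulated arrays, against 58900.0 and 59960 on the control arrays. Of 5 fibroblast markers 4 passed the filter and Col3a1 did not, and the summed signal was 124.9 and 218.9 on the stimulated arrays, against 128.8 and 274.1 on the control arrays. Of 3 smooth muscle markers Cnn1, with a mean of 10.74, and Smtn passed and Myh11 did not, and the sums were 1702 and 2413 on the stimulated arrays, against 1333 and 2236 on the control arrays. Of the tested fibroblast and smooth muscle probe sets limma called 0, and 1, of Smtn, had an unadjusted p under 0.05. Of 4 endothelial markers 0 passed. Of 4 leukocyte markers Cd3e and Cd68 passed, while Ptprc and Itgam averaged at most 3.24 and 3.52. Cd68, a lysosomal protein gene, rose by 2.08 ± 0.23 (SE, adjusted p = 0.0232 by limma). The summed signal of the leukocyte list was 187.5 and 203.1 on the stimulated arrays, against 115.4 and 134.8 on the control arrays, and the part of any of these lists in the results was not tested.

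Of the 26 probe sets 21 passed the filter and were tested, covering all 10 genes. Only 1 was called by limma after Benjamini-Hochberg adjustment over all probe sets, a rise of Clpp, which is 4.76% of the 21 against a background of 3.85% of all probe sets tested, 2.46% higher and 1.38% lower. The members' share is near that background. At an unadjusted p under 0.05 there were 10 members, 47.6%, against 23.9% of all probe sets. Their changes ran from -0.68 to 0.76 on the log2 scale with a median of -0.18, beside a median of -0.02 over all probe sets tested. The 4 probe sets of the matrix proteases Lonp1, Clpp and Clpx were all higher on both stimulated arrays, as were 25.3% of all probe sets tested. Among all 9 tested protease probe sets they were the only ones. Of the 12 of the fusion and fission genes 11 had changes below 0, as had 53.1% of all probe sets tested. Several probe sets read the same gene and are not independent of each other.

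**Figure D1:**
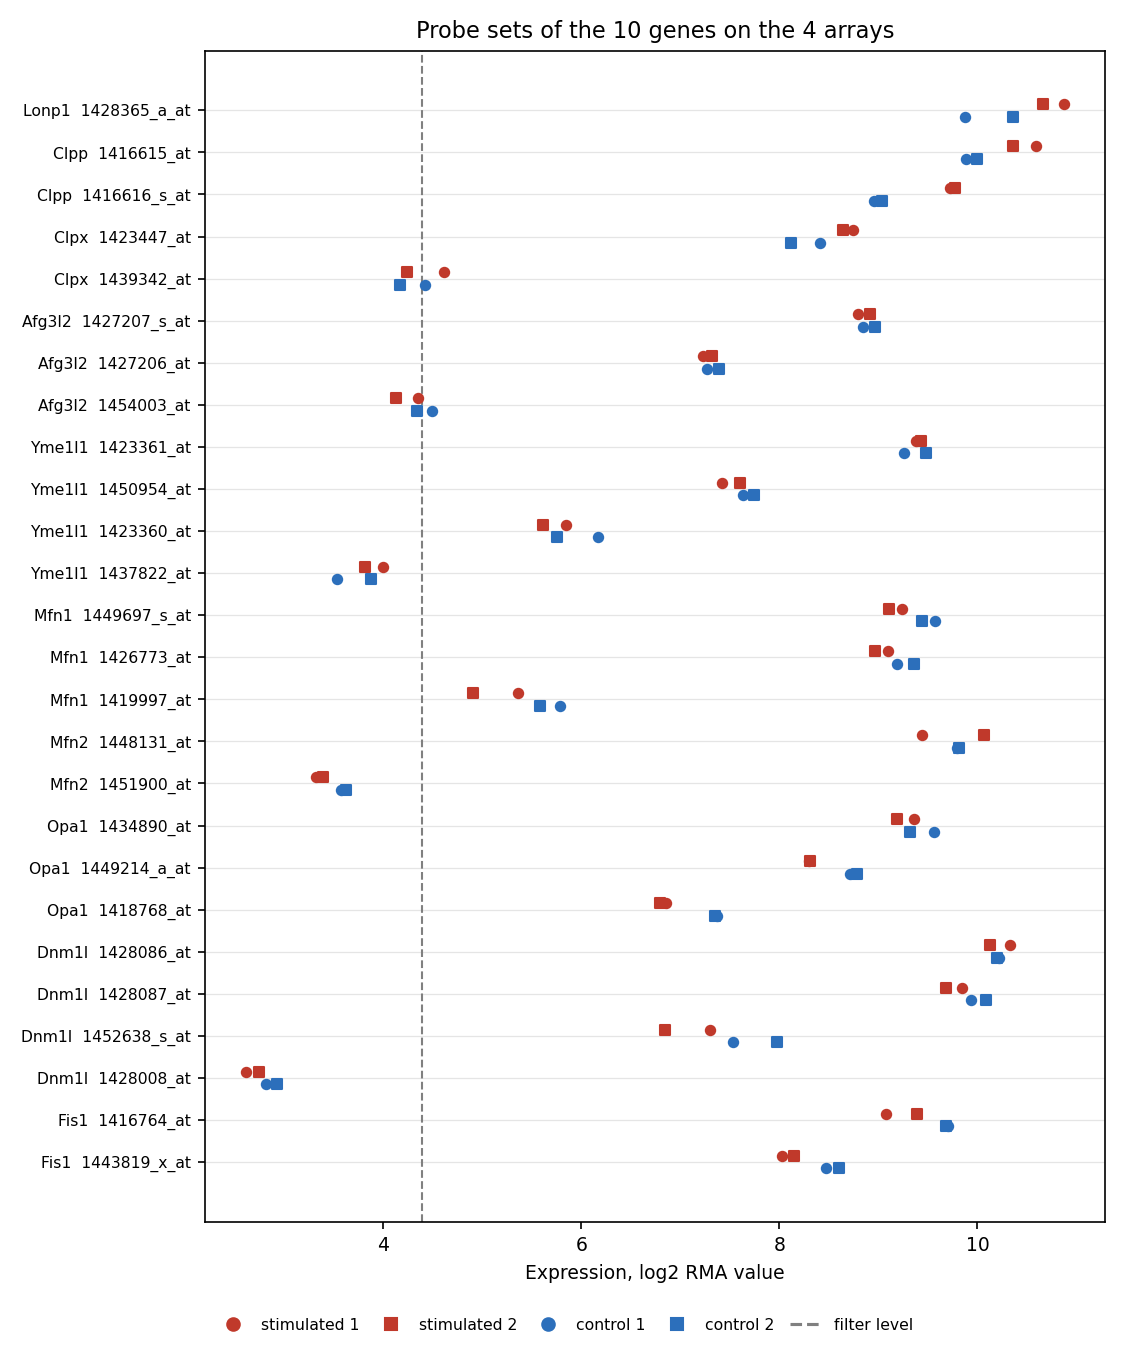
Log2 RMA expression of all 26 probe sets on each array, with stimulated arrays in red above control arrays in blue and the filter level of 4.39 as a dashed line. The 5 probe sets left of the line on average were not tested, and the red points of Lonp1, Clpp and the brighter Clpx probe set lie right of the blue ones.

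Clpp encodes the proteolytic chamber of the CLPXP complex. On the probe set 1416616_s_at it read 9.73 and 9.78 on the stimulated arrays, against 8.95 and 9.04 on the control arrays. The groups lay well apart, and replicates of each group differed by little. The rise was 0.76 ± 0.13 (SE) on the log2 scale, or 1.69-fold, with a 95% interval of 0.45 to 1.07 (adjusted p = 0.0398 by limma). An ID ending in _s_at marks a probe set that can match more than 1 transcript or gene. The other Clpp probe set, 1416615_at, read 10.60 and 10.36 on the stimulated arrays, against 9.88 and 9.99 on the control arrays. Here too the groups did not overlap, but the change of 0.54 ± 0.14 did not pass the test (95% interval 0.19 to 0.89, adjusted p = 0.0945 by limma). With the mean of both probe sets taken as 1 value per gene, Clpp passed, at 0.65 (adjusted p = 0.0336 by limma). The call of 1416616_s_at was lost with any 1 array left out: adjusted p by limma was 0.124 and 0.100 when stimulated 1 or stimulated 2 was dropped, and 0.188 and 0.195 when control 1 or control 2 was dropped. In those fits its change lay between 0.71 and 0.80.

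Clpx encodes the ATP-driven unfoldase that feeds proteins into CLPP. The probe set 1423447_at read 8.75 and 8.64 on the stimulated arrays, against 8.41 and 8.12 on the control arrays. Both stimulated values were above both controls, and the change was 0.43 ± 0.15 (SE, 95% interval 0.06 to 0.80, adjusted p = 0.163 by limma), which did not pass. It was 0.28 without control 2 and 0.57 without control 1. The second Clpx probe set, 1439342_at, averaged 4.36 over the arrays, just below the filter level, and its groups overlapped. Values so near the bottom of the range carry little information about the transcript.

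Lonp1 encodes the matrix protease that degrades oxidised and misfolded proteins and also binds mitochondrial DNA. Its only probe set, 1428365_a_at, read 10.87 and 10.66 on the stimulated arrays, against 9.87 and 10.36 on the control arrays. The groups did not overlap, although the control arrays differed from each other by more than the nearest stimulated and control arrays did. The change was 0.65 ± 0.20 (SE), or 1.57-fold, with a 95% interval of 0.16 to 1.13, and it did not pass (adjusted p = 0.122 by limma). It ranged between 0.40, without control 1, and 0.90, without control 2. Lonp1, Clpp and Clpx thus gave 4 of 4 tested probe sets with the stimulated arrays above the controls. Of all probe sets tested, 25.3% were separated in that direction. These 4 are a part of the protease group, include both of Clpp and do not stand for matrix proteases as a class. Over all 9 tested protease probe sets of the members 4 were higher, 1 was lower and 4 overlapped, with a median change of 0.04. Among the further mitochondrial proteases described below, 8 of 19 tested probe sets were higher, 5 were lower and 6 overlapped.

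Promoter sequence from RefSeq (build GRCm38.p6) was matched by symbol for 9 of the 10 genes, with 13 entries. No entry of Afg3l2 was used. Each entry covers 250 bases before to 50 after a start site. The upstream 250 bases are shown, 5′ to 3′, for the called gene Clpp, for Lonp1, the matrix protease with the next largest change, and for Opa1, the fusion gene with the smallest p. Capitals mark a searched motif, which among these windows Opa1 alone holds.
Clpp, chr17:56990014-56990263, plus strand: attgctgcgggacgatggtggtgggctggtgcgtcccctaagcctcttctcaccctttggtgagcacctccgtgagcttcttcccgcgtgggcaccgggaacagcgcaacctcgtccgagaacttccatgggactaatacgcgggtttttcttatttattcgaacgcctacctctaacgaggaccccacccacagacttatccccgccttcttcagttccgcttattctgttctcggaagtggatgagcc
Lonp1, chr17:56626904-56627153, minus strand: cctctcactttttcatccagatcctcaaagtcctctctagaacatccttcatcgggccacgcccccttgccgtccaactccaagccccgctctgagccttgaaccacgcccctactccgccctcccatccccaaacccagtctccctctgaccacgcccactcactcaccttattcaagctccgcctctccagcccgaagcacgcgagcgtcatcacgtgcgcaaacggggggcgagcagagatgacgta
Opa1, chr16:29579084-29579333, plus strand: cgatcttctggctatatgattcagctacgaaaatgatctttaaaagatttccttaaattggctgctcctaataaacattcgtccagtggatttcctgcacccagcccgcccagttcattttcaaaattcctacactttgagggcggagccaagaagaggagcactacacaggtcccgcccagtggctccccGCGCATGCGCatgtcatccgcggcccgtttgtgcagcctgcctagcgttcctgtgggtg
The motifs searched on both strands were TGATGNAA, a composite element for ATF4 with C/EBP proteins, and GCGC followed by any base and TGCGC, the element of the respiratory gene activator NRF1. The first matched 0 of the 9 genes, and stands in 3.97% of all 32851 promoter windows of this length. Counted by gene, 4.51% have a match, so 0 among 9 genes says little. The second matched only Opa1, as GCGCATGCGC beginning 59 bases upstream of the start site, and stands in 4.6% of all windows and 5.19% of genes. A match is a run of letters in the window and was not tested as a binding site.

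Afg3l2 encodes the matrix-facing AAA protease of the inner membrane. Its brightest probe set, 1427207_s_at, read 8.79 and 8.92 on the stimulated arrays, against 8.85 and 8.97 on the control arrays. The probe set 1427206_at read 7.23 and 7.32 on the stimulated arrays, against 7.27 and 7.38 on the control arrays. The groups overlapped on both. The changes were -0.05 ± 0.13 (SE) on each (95% interval -0.37 to 0.28 and -0.37 to 0.26, adjusted p = 0.875 and 0.857 by limma). Without control 2 they were 0.01 and 0.0036, and without stimulated 1 the first was also 0.01. The third Afg3l2 probe set, 1454003_at, averaged 4.33 and was not tested.

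Yme1l1 encodes the AAA protease that faces the space between the membranes and cuts OPA1. The probe set 1423361_at read 9.38 and 9.43 on the stimulated arrays, against 9.26 and 9.48 on the control arrays, with both stimulated values between the controls. Its change was 0.04 ± 0.14 (SE, 95% interval -0.30 to 0.38, adjusted p = 0.919 by limma), and it was -0.07 without control 1. The probe set 1450954_at read 7.42 and 7.61 on the stimulated arrays, against 7.64 and 7.74 on the control arrays. It was the only tested Yme1l1 probe set whose groups did not overlap, by a margin of a few hundredths, with a change of -0.18 ± 0.14 (adjusted p = 0.502 by limma), or -0.083 without stimulated 1 and -0.27 without stimulated 2. The dimmer 1423360_at differed by -0.23 ± 0.18 (adjusted p = 0.509 by limma) with overlapping groups, or by -0.028 without control 1 and -0.43 without control 2, and the fourth, 1437822_at, averaged 3.81 and was not tested. Over Afg3l2 and Yme1l1 together the median change of 5 probe sets was -0.05.

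**Figure D2:**
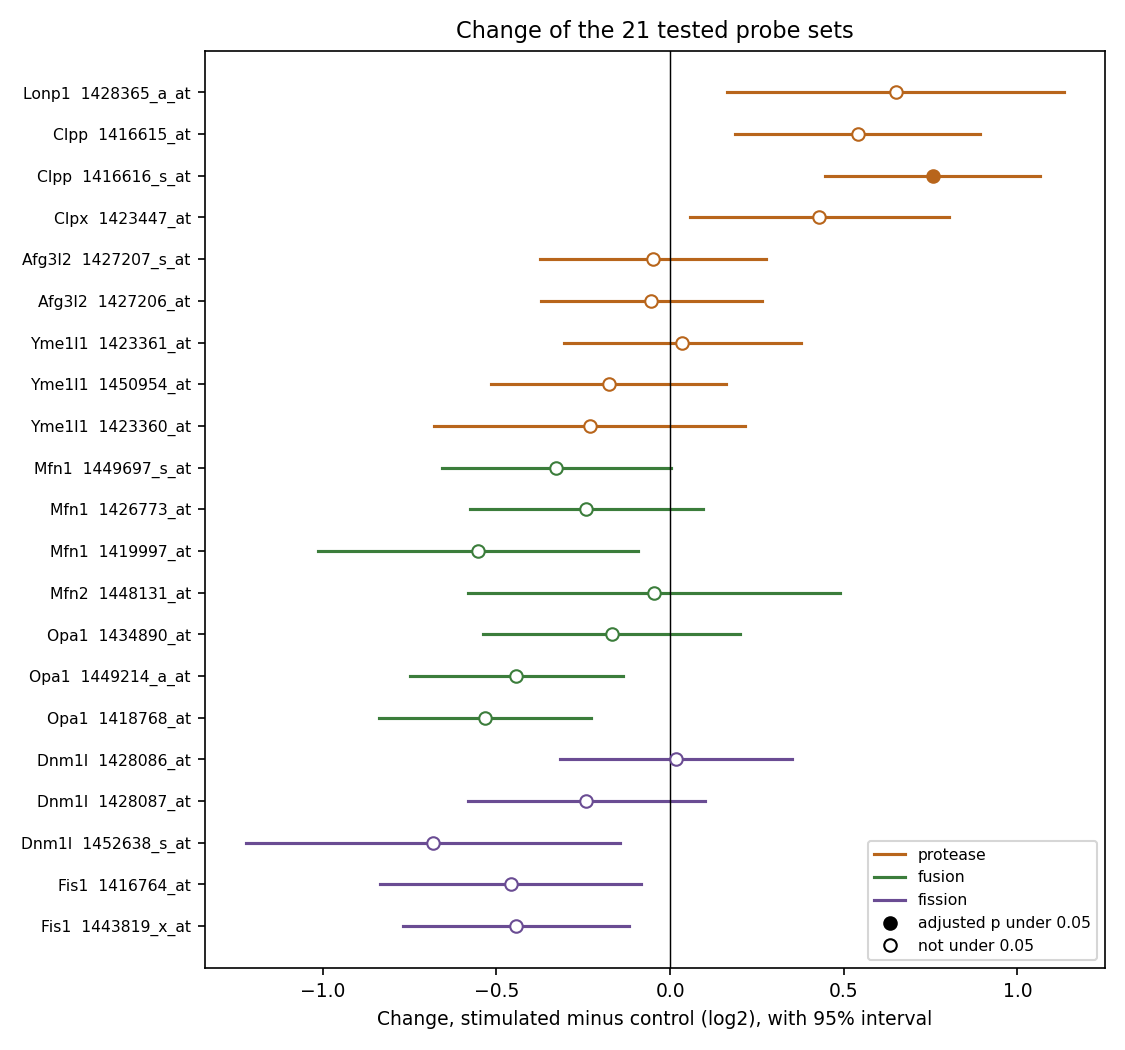
Log2 change of the 21 tested probe sets, stimulated minus control, coloured by role; lines are the 95% intervals of the limma fit. Filled circles mark an adjusted p under 0.05, which only 1416616_s_at of Clpp reached, at 0.76.

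Opa1 encodes the dynamin-like protein that joins inner membranes and holds the cristae in shape. The probe set 1418768_at read 6.86 and 6.80 on the stimulated arrays, against 7.37 and 7.35 on the control arrays. The probe set 1449214_a_at read 8.30 and 8.31 on the stimulated arrays, against 8.71 and 8.78 on the control arrays. On both, replicates nearly coincided and the groups lay clearly apart. The changes were -0.53 ± 0.12 (SE, 95% interval -0.84 to -0.23) and -0.44 ± 0.12 (95% interval -0.75 to -0.14), and neither passed over all probe sets (adjusted p = 0.0726 and 0.105 by limma). The brightest probe set, 1434890_at, read 9.36 and 9.18 on the stimulated arrays, against 9.56 and 9.32 on the control arrays. There the groups overlapped and the change was -0.17 ± 0.15 (adjusted p = 0.565 by limma). It was -0.045 without control 1, -0.081 without stimulated 2 and -0.29 without control 2. The 3 changes were spread over 0.36 on the log2 scale.

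Mfn1 encodes a mitofusin, a GTPase that tethers outer membranes. The probe set 1449697_s_at read 9.24 and 9.11 on the stimulated arrays, against 9.57 and 9.44 on the control arrays. The probe set 1426773_at read 9.09 and 8.97 on the stimulated arrays, against 9.19 and 9.36 on the control arrays. The third, 1419997_at, was far dimmer and read 5.36 and 4.90 on the stimulated arrays, against 5.78 and 5.58 on the control arrays. On all 3 the stimulated arrays lay below the controls. The changes were -0.33 ± 0.13, -0.24 ± 0.14 and -0.55 ± 0.19 (SE), and none passed (adjusted p = 0.211, 0.35 and 0.151 by limma). The change of 1419997_at was -0.33 without stimulated 2 and -0.78 without stimulated 1, and that of 1426773_at was -0.16 without control 2 and -0.32 without control 1.

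Mfn2, the second mitofusin, which also links mitochondria to the endoplasmic reticulum, gave no steady direction. Its probe set 1448131_at read 9.44 and 10.07 on the stimulated arrays, against 9.79 and 9.81 on the control arrays. The stimulated arrays lay on opposite sides of the controls, which nearly coincided. The change was -0.05 ± 0.22 (SE) with a wide 95% interval of -0.58 to 0.49 (adjusted p = 0.935 by limma). It was 0.27 without stimulated 1 and -0.36 without stimulated 2, so that its direction turns on which stimulated array is used. A second probe set, 1451900_at, averaged 3.48, below the filter, and was not tested.

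Fis1 encodes a small outer membrane adaptor of fission. The probe set 1416764_at read 9.07 and 9.39 on the stimulated arrays, against 9.70 and 9.68 on the control arrays. The probe set 1443819_x_at, whose ending marks probes that may cross-hybridise, read 8.03 and 8.14 on the stimulated arrays, against 8.47 and 8.60 on the control arrays. Stimulated values were the lower ones on both, with no overlap. The changes were alike, -0.46 ± 0.15 and -0.44 ± 0.13 (SE), with 95% intervals of -0.83 to -0.08 and -0.77 to -0.12. Neither passed (adjusted p = 0.146 and 0.117 by limma). Without stimulated 1 the change of 1416764_at was -0.30, and without stimulated 2 it was -0.62.

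Dnm1l encodes DRP1, the dynamin that drives division, and its probe sets disagreed. The brightest, 1428086_at, read 10.33 and 10.12 on the stimulated arrays, against 10.21 and 10.20 on the control arrays. The controls fell between the stimulated arrays, and the change was 0.02 ± 0.14 (SE, 95% interval -0.32 to 0.35, adjusted p = 0.964 by limma). The probe set 1428087_at read 9.85 and 9.69 on the stimulated arrays, against 9.93 and 10.09 on the control arrays. Its change was -0.24 ± 0.14 (adjusted p = 0.356 by limma). The probe set 1452638_s_at read 7.29 and 6.85 on the stimulated arrays, against 7.53 and 7.98 on the control arrays. This was the lowest change of any member, -0.68 ± 0.22 (95% interval -1.22 to -0.14), and it did not pass either (adjusted p = 0.136 by limma). Arrays of the same group differed widely there, and the change was -0.90 without stimulated 1 and -0.46 without control 2. The 3 changes spanned 0.70 on the log2 scale, the widest spread within any of the 10 genes. The fourth, 1428008_at, averaged 2.77 and was not tested.

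In all, stimulated and control arrays did not overlap on 14 of the 21 tested probe sets, 66.7%, against 54.1% of all probe sets. By direction, 4 members lay apart with the stimulated arrays higher, 19%, against 25.3% of all probe sets. With the stimulated arrays lower there were 10, 47.6%, against 28.8% of all probe sets. These lower ones comprised 3 of Mfn1, 2 each of Opa1, Dnm1l and Fis1, and 1 of Yme1l1, so that 9 of the 12 tested probe sets of fusion and fission genes were of this kind. The median change was -0.39 over these 12, 0.59 over the 4 of Lonp1, Clpp and Clpx and 0.04 over all 9 of the proteases. A 2 against 2 comparison of single values cannot give a two-sided exact permutation p below 0.333, so no probe set was tested that way.

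The other genes of the same pathways were taken as 5 lists. Among 15 further mitochondrial protease genes, 14 had a probe set and 19 probe sets were tested, with a median change of 0.10 beside -0.02 over all probe sets. Only Htra2 was called, on both of its probe sets (2 rises and 0 falls of 19). HTRA2 is a serine protease of the space between the membranes that promotes cell death once it is released. Its probe set 1436269_s_at read 9.39 and 9.53 on the stimulated arrays, against 8.46 and 8.29 on the control arrays, a rise of 1.08 ± 0.14 (SE, adjusted p = 0.0269 by limma). On 1460495_s_at, whose ID like the first allows matches to other transcripts, the rise was 0.88 ± 0.13 (adjusted p = 0.0331 by limma). Atp23, a metalloprotease gene whose role is known from yeast, had a change of 0.56 ± 0.14 and Mipep, which trims imported precursors, one of -0.59 ± 0.15 (adjusted p = 0.0869 and 0.0908 by limma), so neither passed.

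Among 24 further fusion and fission genes, 57 probe sets of 22 genes were tested, with a median change of -0.04. There was 1 rise and 0 falls. The rise was of Inf2, a formin that builds actin filaments at sites of division. Its probe set 1436216_s_at read 7.60 and 7.83 on the stimulated arrays, against 6.48 and 6.67 on the control arrays, a change of 1.14 ± 0.15 (SE, adjusted p = 0.028 by limma). The other Inf2 probe set, 1432184_a_at, differed by only 0.19 ± 0.13 (adjusted p = 0.448 by limma). Spire1, an actin nucleator that works with INF2, had a change of 0.68 ± 0.15 on 1454962_at (adjusted p = 0.0653 by limma). Its other tested probe sets differed by 0.16 to 0.34, with overlapping groups (adjusted p = 0.5185 to 0.7289 by limma). Immt, the core of the cristae junction complex, and Miga1, an outer membrane fusion factor, both had changes of -0.60 (adjusted p = 0.0888 and 0.0949 by limma), and their other probe sets lay between -0.39 and -0.01.

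Mitochondrial chaperones and stress regulators held most of the calls: 8 of 26 probe sets, 30.8%, rose and 0 fell, where 2.46% of all probe sets were called higher and 1.38% lower. The list's median change was 0.49. The list was chosen with earlier results of these data known, so its share of calls is no independent support. The transcription factor gene Ddit3, which encodes CHOP, read 10.74 and 10.60 on the stimulated arrays, against 7.97 and 8.14 on the control arrays. It rose by 2.62 ± 0.14 (SE, adjusted p = 0.004 by limma), while its other probe set, 1443897_at, differed by 1.30 ± 0.38 and was not called (adjusted p = 0.113 by limma). Its partner Cebpb rose by 2.33 ± 0.23 and the upstream regulator Atf4 by 1.26 ± 0.12 (both adjusted p = 0.0187 by limma), and a second probe set of each also rose, by 2.42 for Cebpb and 1.33 for Atf4, while the remaining one of Atf4 differed by 0.21 and was not called. The other called genes were Hspe1, the matrix co-chaperonin, and Hspa9, the matrix HSP70, both singled out after their values were seen. Hspe1 rose on both of its probe sets, by 1.02 ± 0.16 and 1.00 ± 0.16. Hspa9 rose by 0.78 ± 0.13 on 1 of 5, with the others at -0.22 to 0.55. The chaperonin gene Hspd1 differed by 0.25 (adjusted p = 0.336 by limma). Neither it nor Grpel1, Grpel2, Dnaja3, Trap1, Clpb, Atf5 and Ubl5 had a probe set called.

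Of the mitophagy genes, 9 had a probe set and 17 probe sets were tested, with 1 rise, 2 falls and a median change of 0.03. The autophagy receptor gene Sqstm1 read 12.40 and 12.54 on the stimulated arrays, against 10.78 and 11.03 on the control arrays, and rose by 1.56 ± 0.15 (SE, adjusted p = 0.0172 by limma); its other probe set differed by 0.58 (adjusted p = 0.0646 by limma). The mitophagy receptor genes Bnip3 and Fundc1 changed by -2.51 ± 0.37 and -0.71 ± 0.13, both falls (adjusted p = 0.0337 and 0.0494 by limma). Bnip3 read 8.13 and 8.34 on the stimulated arrays, against 10.15 and 11.35 on the control arrays, which differed from each other. Fundc1 read 7.76 and 7.89 on the stimulated arrays, against 8.61 and 8.47 on the control arrays, while its other probe sets differed by -0.52 and -0.12 and were not called. The mitochondrial phosphatase gene Pgam5 differed by 0.75 ± 0.16 (adjusted p = 0.0591 by limma).

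In the list for mitochondrial DNA upkeep and biogenesis 27 probe sets of 13 genes were tested, with 1 rise, 0 falls and a median change of 0.04. The rise was of Polg2, the accessory subunit of the mitochondrial DNA polymerase, at 8.00 and 7.94 on the stimulated arrays, against 7.20 and 6.73 on the control arrays (change 1.00 ± 0.18 SE, adjusted p = 0.0462 by limma). The coactivator genes Ppargc1a and Pprc1 had changes of -0.65 ± 0.14 and 0.70 ± 0.17, and Tfb1m, a mitochondrial ribosomal RNA methyltransferase gene, one of 0.41 ± 0.13 (adjusted p = 0.0626, 0.083 and 0.13 by limma). The other 4 probe sets of Ppargc1a differed by -0.31 to -0.13 (adjusted p = 0.259 to 0.777 by limma), and the other of Tfb1m by 0.24. Of all probe sets tested 2.46% were called higher and 1.38% lower. The share called higher was 10.5% for the further proteases and 1.75% for the further fusion and fission genes. It was 5.88% for mitophagy and 3.7% for mitochondrial DNA and biogenesis, beside the 30.8% of the chaperone and stress list. The only falls were the 2 of mitophagy, among its 17 probe sets. Over the 5 lists 15 probe sets of 11 genes were called, where 3.85% of all probe sets tested were. Far fewer passed with 1 array left out, 1 when either stimulated array was dropped, 2 when control 1 was and 0 when control 2 was.

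**Figure D3:**
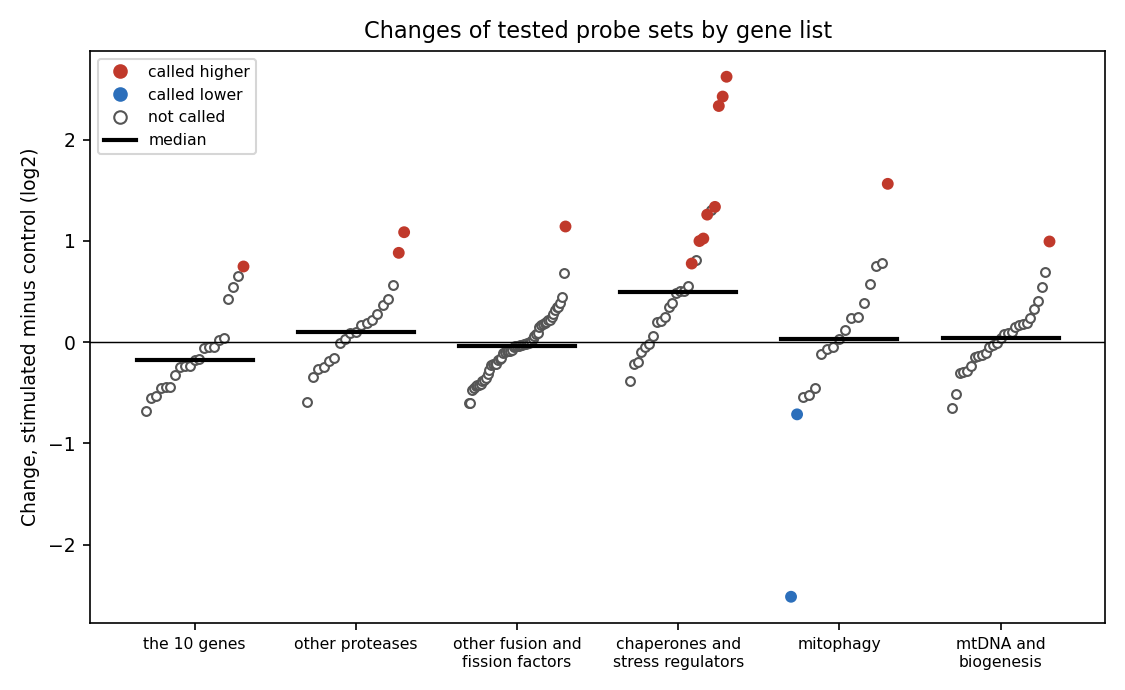
Log2 change of each tested probe set, stimulated minus control, for the 10 genes and the 5 further lists, sorted within each list, with the median as a bar. Red points are called rises and blue points called falls; the chaperone and stress list has 8 red points and a median of 0.49, and the 10 genes have 1 red point and a median of -0.18.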

How the data were processed

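HL-1 cell RNA from 2 stimulated and 2 control samples was measured on 1 Affymetrix array each. The deposited values are on the log2 scale, 1 per probe set and array, and were made by the authors with RMA, per the submitters' processing notes. RMA corrects background, quantile normalizes arrays and summarises probes. Its version and settings are not given in the sources used here. It compresses differences of dim probe sets, so these can be understated. Differences of very bright probe sets on an array can be understated too. The number of arrays limits the precision.

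Of 45101 probe sets, 64 manufacturer's controls were left out. Symbols came from GEO's platform annotation: 34945 probe sets had 1 symbol, 932 several and 9160 none, and a RefSeq gene table (GRCm38.p6) changed 0 of the symbols. Probe sets whose mean over the 4 arrays reached the 40th percentile (27022) were fitted in R 4.3.3 by lmFit and eBayes of limma 3.58.1, with group as the only term and two-sided p. P-values were adjusted by Benjamini-Hochberg over all of them, with a threshold of 0.05, and the fit was tested on simulated data. Changes are stimulated minus control, ± the standard error of the fit.

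All member probe sets are named. From each further list the genes of the 4 probe sets with the smallest p are named. Members and lists were chosen with earlier results of these data known. The alternatives were other filters, median centring, 1 value per gene, trend and robust eBayes, a replicate block and leaving out each array.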

Additional observations from a re-analysis of the deposited data

How the results depend on the processing

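The member count called stayed at 1 in most settings, while the share over all probe sets moved. It was 1 of 26, 24 and 19 with no filter, the 20th and the 60th percentile filter, against 1.79%, 2.54% and 8.22% of all probe sets. It was 1 of 21 with median centring, trend eBayes, robust eBayes and the replicate block, against 3.94%, 4.89%, 4.52% and 7.55%. With the mean of a gene's probe sets 1 of 10 member genes was called, against 6.24% of all genes. With the brightest probe set per gene 0 of 10 were called, against 5.53% of all genes. In that last setting 9 genes of the 5 further lists were called. That counts genes, while the 15 of the main fit counts probe sets, several of them of the same gene. With 1 array left out 7 to 114 of all probe sets were called, against 1039 with all 4 arrays, and 0 members and 0 to 2 of the further lists, from fits of 3 arrays in which the lone array of a group is assumed to vary like the other group. The replicate block, with the numbers taken as pairs, gave 2040 calls over all probe sets and changed no member's call. Deviations of same-numbered arrays from their group means correlated at 0.31. With 2 pairs, and control numbers from a protocol text and accession order, the samples share only a number. Averaging a gene's probe sets, the change was -0.042 for Yme1l1 and -0.27 for Dnm1l, against 0.04 and 0.02 on the brightest probe set. The averages take in probe sets below the filter, 1437822_at for Yme1l1 and 1428008_at for Dnm1l. With 1 array left out the change lay between -0.36 and 0.27 for Mfn2, -0.073 and 0.14 for Yme1l1 1423361_at, -0.085 and 0.12 for Dnm1l 1428086_at, -0.11 and 0.0125 for Afg3l2 1427207_s_at, and -0.11 and 0.0036 for Afg3l2 1427206_at. None of these passed the test. Centring moved the median change by 0.01. Probe sets near the filter level of 4.39 have little signal above background, which limits what they can show.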
